A study of Mus musculus with 18 samples.

Results

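Wide accessible regions far from transcript starts were examined in the chromatin of mouse macrophages. ATAC-seq, in which the Tn5 transposase places sequencing adapters into exposed DNA, had been run on bone marrow-derived macrophages (BMDMs), primary cells grown from the marrow of male wild type C57/BL6 mice aged 6 to 8 weeks. The 18 libraries formed 9 groups of 2: untreated cells, cells given LPS, a bacterial ligand of TLR4, for 30 min, 1 h, 2 h or 4 h, and cells given the cytokine IL-4 for the same times. Both stimuli were used at 10 ng/mL and all groups, the untreated one included, had first received the vehicle DMSO for 1 h. Per the study's methods, reference peaks were those with a strict q-value and overlap between replicates, while the summit names are those of 1 merged call. How both steps led to the deposited catalog is not given in the sources used here. It holds 82391 reference peaks, with a list of summits (the local maxima inside a peak, each with a score whose scale is not stated) and a list of extended regions that group neighbouring peaks. No list held a value per library, so neither the depth of a library nor an effect of LPS or IL-4 on a region could be given.

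A peak was taken as a wide distal peak if it lay on an autosome, was 500 bp wide or more, overlapped no window of 1000 bp either side of an annotated transcript start, and belonged to an extended region with fewer than 5 reference peaks. The peaks were thus chosen by their measured width, and width, summit number and score, which come from the same peak call, are given here as description. Of the 82391 reference peaks, 3551 reached 500 bp and 3517 of these lay on chromosomes 1 to 19. Within 1000 bp of a start lay 2589 of them, and 209 of the remaining 928 were in dense regions, which left 719 wide distal peaks. They made up 0.873% of all reference peaks and 1.31% of the 54794 distal peaks that met the same conditions of position. The other 54075 distal peaks, all under 500 bp, are called narrower distal peaks below. Macrophage markers were looked up at 8 genes (Csf1r, Adgre1, Itgam, Cd68, Lyz2, Mertk, Fcgr1 and Cd14): each had at least 1 reference peak within 1000 bp of its most upstream start. The share of all coding genes with such a peak was not computed, so this count does not test the macrophage label. Wide distal peaks lay within 50000 bp of 2 of the 8, Lyz2 (lysozyme) and Cd14 (the LPS co-receptor), where 5.21% of all protein-coding genes had one.

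Accessible DNA away from promoters marks, for the most part, enhancers and other cis-regulatory elements, where transcription factors displace nucleosomes. In macrophages the ETS factor PU.1, with C/EBP and RUNX factors, establishes most of the enhancer repertoire, while AP-1, NF-kB, IRF and STAT factors carry the response to stimuli such as LPS and IL-4. SP and KLF factors bind GC-rich sequence, and CTCF holds insulators and the anchors of chromatin loops.

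The best scored summit of every peak was taken with the 100 bp before and after it, and short consensus sequences of these factors were looked for on either strand of this window. The letters were GAGGAAGT for PU.1/ETS, TGACTCA for AP-1, TTGCNNAA for C/EBP, TGTGGTT for RUNX, GAAANNGAA for IRF, TTCNNNGAA for STAT, TTC and GAA with 4 bases between them for STAT6, TGACGTCA for CRE/ATF, TCACGTGA for the E-box of MiT factors, GGGCGGG for SP/KLF, GNGTGGGCG for EGR, and ATGCAAAT for OCT and CAAAGTCCA for HNF4, which stand for other lineages. NF-kB, MEF2 and CTCF were searched with longer degenerate consensus sequences. SP/KLF and EGR share the letters GGGCG and can be read from overlapping bases. For 7 factors, the widest distal peak with the sequence within 50 bp of its best summit, outside exons, is shown so that the sites can be seen in their surroundings. The window of 100 bp either side exceeds the lower quartile of narrower peak width, 185 bp, so part of it lies outside many narrower peaks, and the choice by width enters the comparisons with them to that extent. Each line gives 101 bases centred on the summit, 5′ to 3′ on the plus strand of mm10 (sequence of GRCm38.p6 from RefSeq), and capitals mark the matched bases.
PU.1/ETS (chr14:30593326-30593426): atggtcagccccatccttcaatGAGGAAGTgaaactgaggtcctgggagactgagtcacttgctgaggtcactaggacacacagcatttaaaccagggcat
AP-1 (chr2:128162732-128162832): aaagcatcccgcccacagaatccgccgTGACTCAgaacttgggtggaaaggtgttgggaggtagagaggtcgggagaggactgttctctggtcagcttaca
NF-kB (chr1:150108757-150108857): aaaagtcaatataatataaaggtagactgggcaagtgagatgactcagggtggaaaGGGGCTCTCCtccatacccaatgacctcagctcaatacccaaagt
IRF (chr12:85645973-85646073): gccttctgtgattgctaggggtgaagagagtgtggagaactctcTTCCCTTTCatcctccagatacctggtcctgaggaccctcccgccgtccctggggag
C/EBP (chr11:58302537-58302637): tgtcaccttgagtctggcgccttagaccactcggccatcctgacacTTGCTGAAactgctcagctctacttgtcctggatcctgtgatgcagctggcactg
RUNX (chr6:65635601-65635701): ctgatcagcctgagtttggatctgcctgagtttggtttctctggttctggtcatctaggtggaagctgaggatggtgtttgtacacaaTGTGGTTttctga
CTCF (chr9:119970364-119970464): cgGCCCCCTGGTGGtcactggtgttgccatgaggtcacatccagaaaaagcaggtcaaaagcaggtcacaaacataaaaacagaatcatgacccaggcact

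These summits lay in different kinds of loci. The PU.1/ETS example, from a peak of 954 bp with 2 summits and a best score of 1955, was intergenic and 6831 bp from the nearest coding start, that of Prkcd (a protein kinase C), and its window also held an AP-1 sequence. The NF-kB example came from a peak of 928 bp near Ptgs2, the gene of the inducible cyclooxygenase, and held an AP-1 sequence as well. The IRF example belonged to a peak of 1129 bp between Jdp2 and Batf, which both encode bZIP proteins of the AP-1 family. The CTCF example was in an intron of Cx3cr1, the fractalkine receptor, inside a peak of 1278 bp. The AP-1 example, from a peak of 1034 bp, was nearest to Bcl2l11, which encodes the apoptosis protein Bim, at 34651 bp. The C/EBP example was nearest to Zfp692 and the RUNX example to Ndnf. The peak of the C/EBP example lay within 1000 bp of a transcript start in a second annotation, RefSeq. It had 52% GC and a ratio of observed to expected CpG of 0.63.

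The wide distal peaks were between 500 and 2080 bp long, with a median of 573 bp and quartiles of 528 and 650 bp, against a median of 218 bp for narrower distal peaks. Only 69 reached 750 bp and 16 reached 1000 bp. They covered 440.2 kb, or 3.41% of the bases of all distal peaks. At the threshold, the 87 distal peaks from 490 bp to under 500 bp had a median best score of 1394 and the 77 wide distal peaks under 510 bp one of 1345. In these bins 18.4% and 19.5% of peaks had 2 or more summits. Among all wide distal peaks 413 had 1 summit, 280 had 2, 23 had 3, 2 had 4 and 1 had 5. A share of 42.6% thus had at least 2 summits, against 0.51% of narrower distal peaks. In peaks with 2 summits, these were a median of 309 bp apart (quartiles 256 and 372 bp), and the lower summit scored a median of 0.77 times the higher one.

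Most wide distal peaks had high scores. Their best summit scored a median of 1505 (quartiles 956 and 1799, range 108 to 2552), against 664 for narrower distal peaks. In bins of 100 score units, 33 wide distal peaks lay from 300 to under 400, 14 from 600 to under 700 and 64 from 1500 to under 1600. Below 675, the median of all distal peaks, lay 131 of them, with a median of 384. The other 588 had a median of 1606. This division at the median was made after the scores had been seen. Lower scored wide peaks more often had 2 or more summits (58.8% against 38.9% of the higher scored) and more often touched another reference peak without a gap (11.5% against 2.21%). They held 9 of the 16 peaks of 1000 bp or more. Repeat-masked bases made up a mean of 19% of the lower scored and 11.5% of the higher scored wide peaks. Whether the touching of peaks or repeats had a part in the low scores was not tested.

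**Figure D1:**
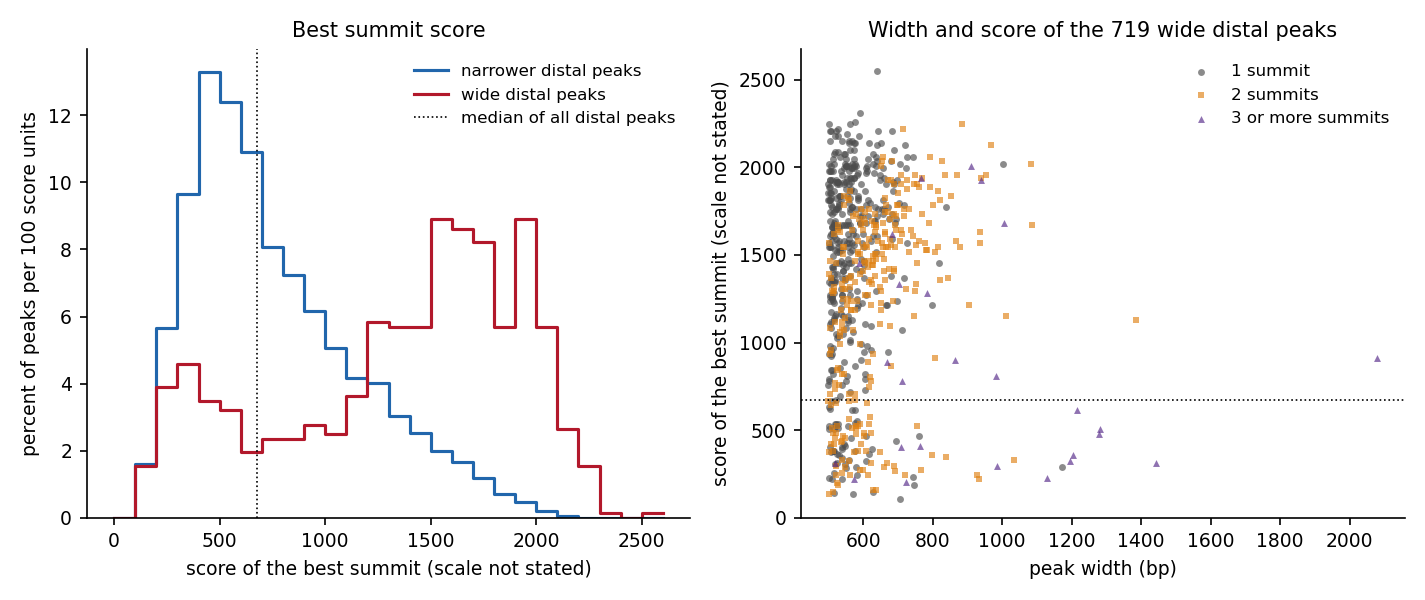
Left, share of peaks per 100 units of best summit score for the 719 wide distal peaks (red) and the 54075 narrower distal peaks (blue); the dotted line is the median of all distal peaks, 675. Right, width in bp against best summit score for each wide distal peak, by number of summits. Of the wide peaks, 588 with a median of 1606 lie on or above the line and 131 below it, among them 9 of the 16 peaks of 1000 bp or more.

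The widest distal peak, chr12:26441302-26443381, was 2080 bp long and reached into the 3′ end of Rsad2, which encodes the interferon-induced antiviral protein viperin. It had 5 summits, the most of any wide distal peak. The best of them scored 911 and lay 14433 bp after the start of Rsad2, and the others scored 274, 430, 430 and 258. The next was chr4:134164754-134166196 of 1443 bp in an intron of Cep85, a centrosomal protein gene, with 3 summits and a best score of 315. It touched another peak, and 47.2% of its bases were repeat-masked. A peak of 1386 bp, chr11:83646630-83648015, lay 2098 bp after the start of Ccl3 and 15327 bp before that of Ccl4, genes of the chemokines MIP-1α and MIP-1β, with 2 summits scored 1129 and 695 and 2 NF-kB sequences. A RefSeq start lay within 1000 bp of this peak, and its nearest coding start was that of Rpl9-ps1, at 1636 bp. In an intron of Cd83, which encodes a surface protein of activated antigen-presenting cells, chr13:43794539-43795821 was 1283 bp long with 3 summits and a best score of 505. The fifth, chr9:119969759-119971036 in Cx3cr1, scored 476. Of these 5 peaks, 3 were lower scored.

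After the Rsad2 peak, 2 peaks had the most summits, 4 each. Those of chr19:34577007-34578222 scored 613, 515, 486 and 421, and the best of them was 6280 bp before the nearest coding start, that of Ifit3, an interferon-induced antiviral gene. This peak also touched another one. Those of chr6:129265940-129267143 scored between 189 and 358 and lay downstream of Cd69, an early activation antigen of leukocytes, the best at 8861 bp. Both peaks were lower scored.

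The best scored wide distal peaks named here were mostly in introns. They are too few to set against the 44.2% of all wide distal peaks with the best summit in an intron of a coding gene. None of these best scored peaks was 1000 bp wide. The highest score, 2552, was at chr4:141993887-141994527 in an intron of Fhad1, where 76.8% of the bases were repeat-masked. Next were chr11:76587187-76587777 in an intron of Abr with 2310, and chr16:4586496-4587072, an intergenic and CpG-rich peak 7928 bp from the start of Glis2 (a zinc finger factor), with 2258, 3 SP/KLF sequences and 1 NF-kB sequence. The peak chr8:120563682-120564566 in an intron of Gse1, 885 bp wide, scored 2245, and its other summit scored 1518.

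By position, wide distal peaks were somewhat less often intronic than narrower ones. The best summit lay in an intron of a protein-coding gene in 318 of 719 (44.2%, 95% Wilson interval 40.6 to 47.9) and in 27902 of 54075 narrower peaks (51.6%, 51.2 to 52.0). It was intergenic in 44.6% (41.0 to 48.3) against 38.1% (37.7 to 38.5). These and all later intervals cover counting error only, treat peaks as independent although neighbours share a locus, and say nothing of replicates. Coding exons held 8 wide peaks (1.11%) and untranslated or noncoding exons of coding genes held 26 (3.62%). The median distance to the nearest coding start was 12062 bp, against 14448 bp for narrower peaks and 9688 bp for lower scored wide peaks. Within 50000 bp of a coding start lay 83.9% of wide and 81.1% of narrower peaks. A second annotation placed 44 wide distal peaks (6.12%) within 1000 bp of a RefSeq start, against 3.77% of narrower peaks.

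Wide distal peaks were spread over the autosomes but not evenly. Their share among distal peaks was between 0.413% (0.20 to 0.85) on chromosome 18, with 7 peaks, and 2.09% (1.59 to 2.74) on chromosome 12, with 50. On the other chromosomes it was between 0.937% and 1.67%. In all, 335 were the only peak of their extended region (46.6%, against 63.8% of narrower peaks), and the 719 peaks fell into 703 regions. Of 700 gaps between neighbours on a chromosome, 85 were under 50000 bp.

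Base composition differed as well. Within 100 bp of the best summit, GC content was 51.3% ± 7.98 (SD over 719 windows) in wide and 48.3% ± 6.22 (54075 windows) in narrower distal peaks, a difference of 3.08 percentage points (95% interval 2.49 to 3.66). It was 52.1% in higher scored and 48.2% in lower scored wide peaks, and 45.5% in 1252 windows placed 1000 bp to either side that overlapped no reference peak. CpG-rich sequence, defined as a ratio of observed to expected CpG above 0.6 with over 50% GC, was found in 64 wide peaks (8.90%) and in 2.05% of narrower peaks. Of the 64, 61 were higher scored and 18 lay within 1000 bp of a RefSeq start. Repeat-masked bases made up a mean of 10.5% of the summit windows in wide and 15.2% in narrower peaks.

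At their best summit, wide and narrower distal peaks held the sequences of PU.1/ETS, C/EBP and RUNX at shares that did not differ beyond counting error. The PU.1/ETS sequence was present in 77 of 719 wide peaks (10.7%, 8.65 to 13.2) and in 10.9% of narrower peaks, a ratio of 0.979 (95% interval 0.792 to 1.21), where 9.23% of all 80800 autosomal reference peaks held it. In the flanking windows it was found in 1.04%, so that the summit share was 10.3 times as high (5.77 to 18.4). The C/EBP sequence was in 12.5% of wide and 13.1% of narrower peaks (11.4% of all peaks), and the RUNX sequence in 9.32% and 9.49% (8.02% of all peaks). Their ratios were 0.953 (0.784 to 1.16) and 0.982 (0.781 to 1.24), and both sequences were also frequent in the flanks, with 7.35% and 5.43%. Around the peak centre in place of the summit, the PU.1/ETS ratio was 0.608 (0.461 to 0.803), which excludes 1. The centre of a wide peak can lie farther from its best summit than that of a narrower one, so the choice by width enters this value. MEF2 was in 4.73% of wide and 3.30% of narrower peaks (2.73% of all peaks), with a ratio of 1.43 (1.03 to 2.00), and in 3.83% of flanks. In the highest quartile of scores the MEF2 ratio was 1.21 (0.806 to 1.83), and from a width of 400 bp it was 1.06 (0.853 to 1.33). Both intervals include 1, as did those within 200 bp of the summit and at the peak centre. Within 50 bp the MEF2 ratio was 1.61 (1.05 to 2.46), which excludes 1. The E-box of MiT factors occurred in 1 wide peak (0.139%) and in 0.266% of narrower peaks (0.485% of all peaks).

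Among sequences linked to stimulation, NF-kB had a ratio whose interval lay above 1. It was present within 100 bp of the best summit in 61 wide distal peaks (8.48%, 6.66 to 10.7) and in 5.68% of narrower ones (5.6% of all peaks), a ratio of 1.49 (1.17 to 1.91). The share was the higher one in wide peaks on 11 of 19 autosomes, and it was 1.68% in the flanks. Among peaks in the highest quartile of scores the ratio was 1.36 (1.02 to 1.83), and among lower scored peaks, with 12 of 131 wide peaks, it was 1.55 (0.903 to 2.67). The interval also included 1 within 50 bp of the summit, at 1.35 (0.968 to 1.88), and from a width of 600 bp, at 1.29 (0.855 to 1.95), and from 750 bp the ratio turned to 0.761 (0.251 to 2.30). AP-1 was the most frequent sequence, in 159 wide peaks (22.1%, 19.2 to 25.3), in 19.7% of narrower peaks and in 2.56% of flanks (16.2% of all peaks). Its ratio of wide to narrower peaks, 1.12 (0.979 to 1.29), did not exclude 1, and in the highest quartile of scores it was 1.01 (0.875 to 1.18). Without CpG-rich peaks, of which 3 of 64 wide ones held AP-1, it was 1.20 (1.04 to 1.37), an interval that does exclude 1. From a width of 400 bp it was 1.21 (1.12 to 1.31). Within 200 bp of the summit it was 1.34 (1.20 to 1.5), but that window is longer than 95% of narrower peaks, so that the choice by width enters this value. It was found in 13.0% (8.26 to 19.8) of lower scored and 24.1% of higher scored wide peaks.

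The other stimulus-linked sequences did not differ beyond counting error. IRF was in 9.18% of wide and 9.21% of narrower peaks (8.19% of all peaks), STAT in 5.98% and 7.07% (6.41% of all peaks), and STAT6, which mediates the response to IL-4, in 8.34% and 7.87% (6.88% of all peaks). Their ratios were 0.996 (0.790 to 1.26), 0.846 (0.632 to 1.13) and 1.06 (0.831 to 1.35). STAT was almost as frequent in the flanks, at 5.59%, as at the summits of wide peaks. CRE/ATF was in 1 wide peak (0.139%) and 0.486% of narrower peaks (0.936% of all peaks). Of other lineages, the sequences reported here, OCT (2.09% and 2.03%, 1.8% of all peaks) and HNF4 (0.417% and 0.255%, 0.239% of all peaks), had ratios of 1.03 (0.620 to 1.70) and 1.63 (0.522 to 5.12).

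Among sequences whose ratio had an interval that excluded 1, the GC-rich and insulator ones differed most, in opposite directions. SP/KLF was in 63 wide distal peaks (8.76%, 6.91 to 11.1) and 2.98% of narrower ones, a ratio of 2.94 (2.31 to 3.74), and its share was the higher one in wide peaks on 18 of 19 autosomes. Over all reference peaks, promoters included, it reached 10.7%. In CpG-rich peaks SP/KLF was in 27 of 64 wide (42.2%, 30.9 to 54.4) and 21.6% (19.3 to 24.1) of narrower peaks, and outside them in 36 of 655 wide (5.50%, 4.00 to 7.52) and 2.59% (2.46 to 2.73) of narrower peaks, so that the difference was present in both classes. Among lower scored peaks the SP/KLF ratio was 1.85 (0.843 to 4.05), which does not exclude 1. EGR was in 10 wide peaks (1.39%) and 0.540% of narrower ones (1.32% of all peaks), with a ratio of 2.58 (1.38 to 4.82), but 7 of the 10 were CpG-rich, and without CpG-rich peaks the ratio was 1.02 (0.327 to 3.17). CTCF was in 4 wide peaks (0.556%, 0.217 to 1.42) and 3.75% of narrower ones (3.12% of all peaks), a ratio of 0.148 (0.0558 to 0.395). Its share was the lower one in wide peaks on 19 of 19 autosomes. Within 200 bp of the summit the CTCF ratio was 0.287 (0.144 to 0.573). Anywhere in the peak, where wide peaks offer more sequence, CTCF was in 17 wide peaks (2.36%) and 3.76% of narrower ones. In the highest quartile of scores, with 3 of 530 wide peaks and 1.74% of narrower ones, the CTCF ratio was 0.325 (0.104 to 1.01), and among lower scored peaks it was 0.16 (0.0226 to 1.13).

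**Figure D2:**
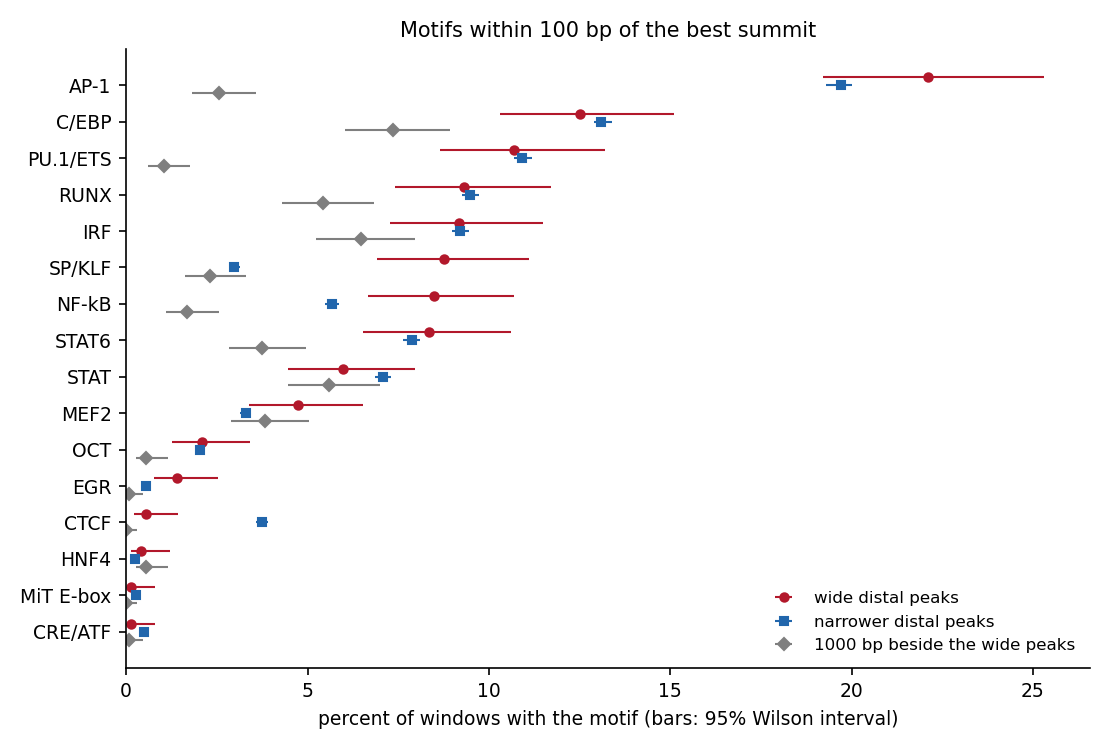
Percent of windows within 100 bp of the best summit that held each sequence, in the 719 wide distal peaks (red), the 54075 narrower distal peaks (blue) and 1252 windows 1000 bp beside the wide peaks (grey), with 95% Wilson intervals. Wide and narrower peaks overlap for PU.1/ETS, C/EBP, RUNX, IRF and STAT6, whereas SP/KLF (8.76% against 2.98%) and NF-kB (8.48% against 5.68%) were higher and CTCF (0.556% against 3.75%) was lower in wide peaks.

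Set against width over all distal peaks, these sequences followed different courses, and for each of 5 the intervals of the bins on either side of 500 bp overlapped. CTCF fell from 5.15% (4.48 to 5.91) of peaks under 150 bp to 0.853% (0.499 to 1.45) of those from 400 to under 500 bp and 0.461% (0.126 to 1.66) of those from 500 to under 600 bp. NF-kB rose from 3.0% (2.49 to 3.6) to 10.1% (8.69 to 11.7) in the bin from 400 bp, and was at 9.22% (6.84 to 12.3) in the bin from 500 bp and 8.33% (5.34 to 12.8) in that from 600 to under 750 bp. SP/KLF stayed between 2.52% and 3.71% in every bin under 400 bp, and reached 5.64% (4.59 to 6.92), 7.83% (5.66 to 10.7) and 11.1% (7.58 to 16.0) in the next 3 bins. AP-1 had its highest share, 26.6% (25.5 to 27.7), from 300 to under 400 bp, and PU.1/ETS lay between 10.2% and 12% in every bin under 750 bp. In the 69 peaks of 750 bp or more, PU.1/ETS and NF-kB were each in 3 peaks, or 4.35% (1.49 to 12), CTCF was in 2, or 2.9% (0.799 to 9.97), and SP/KLF was in 7.25% (3.13 to 15.9). Median score was higher in wider bins too, from 603 under 150 bp to 1468 in the bin from 400 bp, and was at 1431, 1581 and 1531 in the 3 bins of wide peaks. Its part in these courses was not tested beyond the comparisons of wide and narrower peaks of like score.

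**Figure D3:**
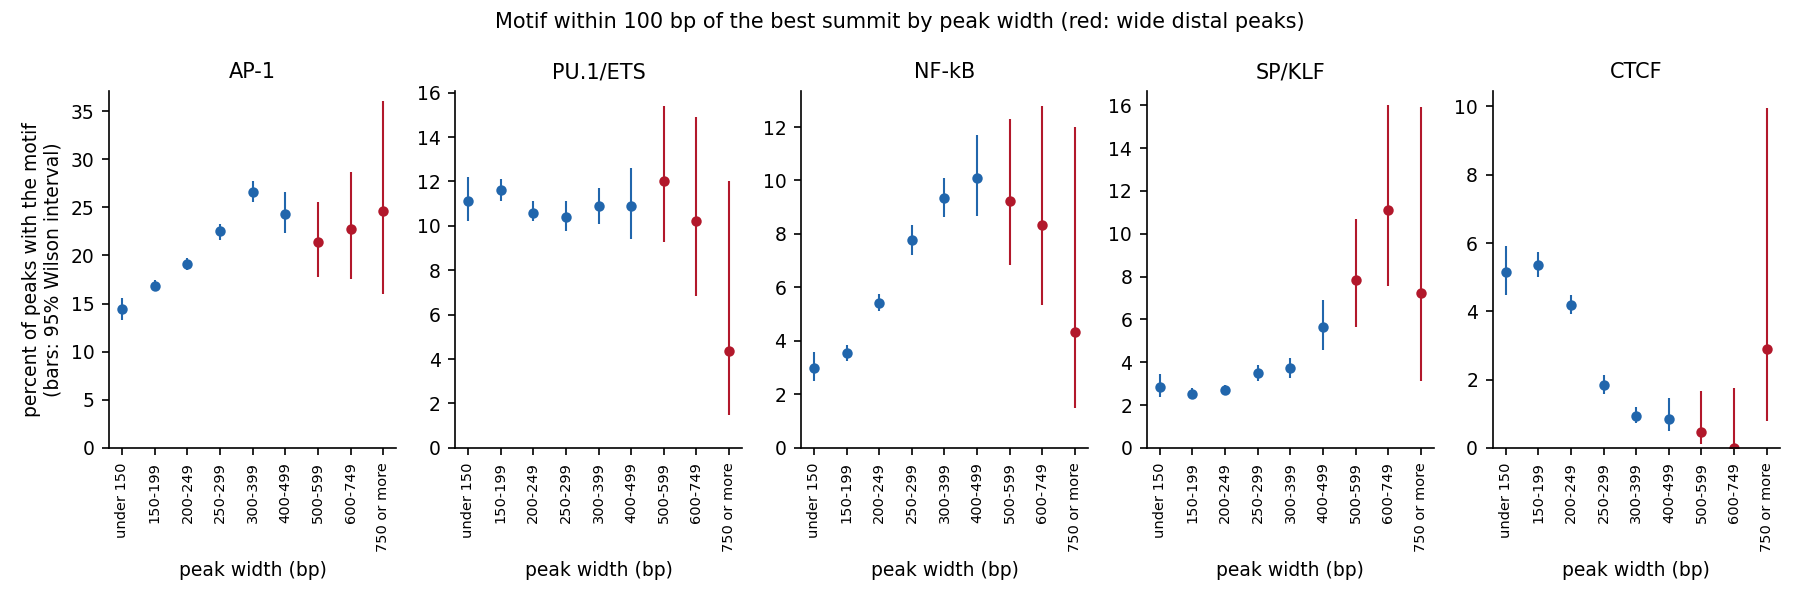
Percent of distal peaks with each of 5 sequences within 100 bp of the best summit, by peak width in bp, with 95% Wilson intervals; red points are wide distal peaks. CTCF falls from 5.15% to 0.461% between the narrowest bin and the bin from 500 bp, NF-kB rises to 10.1% in the bin from 400 bp, and PU.1/ETS stays between 10.2% and 12% under 750 bp.

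AP-1 sites were densest beside the summit in wide as in narrower peaks. Farther out the bins are mostly inside wide peaks and outside narrower ones, as the choice by width fixes, so densities there are a description. AP-1 sites had a density of 1.67 and 1.70 per kb in the 50 bp before and after the summit of wide peaks, and of 1.58 and 1.64 in narrower peaks. Between 100 and 150 bp after the summit AP-1 density was 0.556 per kb in wide and 0.209 in narrower peaks, and between 450 and 500 bp it was 0.167 and 0.206. NF-kB density was highest, 0.751 per kb, in the first 100 bp after the summit. For SP/KLF, density in wide peaks was between 0.501 and 0.695 per kb in the 5 bins from 150 bp before to 100 bp after the summit, which rest on 18 to 25 sites each.

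**Figure D4:**
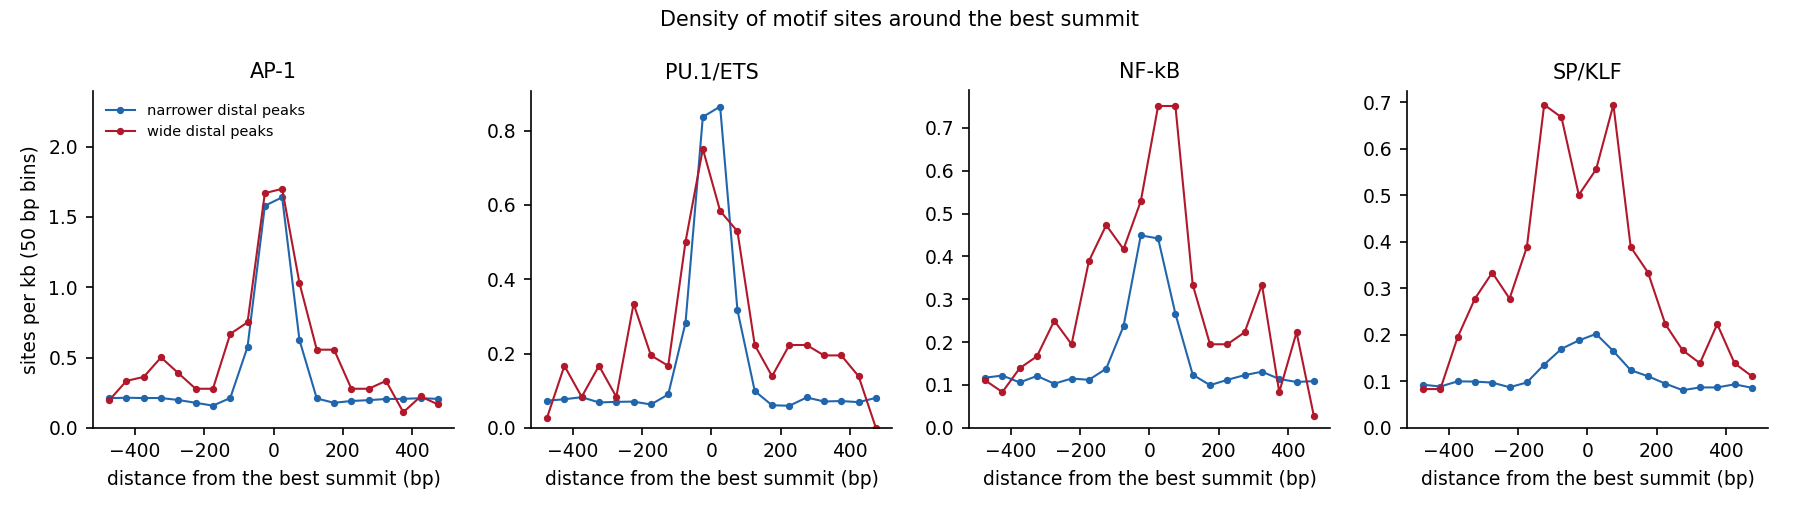
Sites per kb in bins of 50 bp against distance in bp from the best summit, for AP-1, PU.1/ETS, NF-kB and SP/KLF in wide (red) and narrower (blue) distal peaks. AP-1 reaches 1.70 per kb beside the summit of wide peaks and NF-kB 0.751.

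Over their whole length, 264 wide distal peaks held AP-1 (36.7%), 209 C/EBP (29.1%), 153 IRF (21.3%), 136 RUNX (18.9%), 132 PU.1/ETS (18.4%), 118 NF-kB (16.4%) and 116 SP/KLF (16.1%). In the shorter narrower peaks these shares were, in the same order, 20.2%, 14.4%, 10.3%, 10.2%, 11.2%, 6.1% and 3.34%, and longer peaks hold more sites by length alone. Of the 5 sequences PU.1/ETS, AP-1, NF-kB, C/EBP and RUNX, 178 wide peaks held none (24.8%), 284 held 1, 200 held 2 and 57 held 3 or more (7.93%). These counts were made for wide peaks alone and have no comparison. AP-1 and NF-kB were both present in 57, and PU.1/ETS and AP-1 in 42. More than 1 AP-1 site was found in 69 wide peaks (9.6%) and in 2.34% of narrower ones. Per base, sites were sparser than in narrower peaks for AP-1 (0.786 against 0.989 per kb), C/EBP (0.582 against 0.691), IRF (0.402 against 0.496), RUNX (0.348 against 0.473), PU.1/ETS (0.350 against 0.510) and CTCF (0.0409 against 0.166). They were denser for NF-kB (0.413 against 0.319) and SP/KLF (0.463 against 0.176). Sites such as those of AP-1 were densest beside the summit, and wide peaks take in more sequence away from it. The choice by width therefore enters these densities, which are a description.

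Single peaks with arrays of a sequence weighed on some of these densities. One peak of 629 bp, chr11:105002786-105003414 in an intron of Gm11639, held 24 of the 182 NF-kB sites, and NF-kB density in the other wide peaks was 0.359 per kb. Its best score was 161. A peak of 601 bp, chr10:4601543-4602143, intergenic and 9617 bp from the nearest coding start, that of Esr1 (an estrogen receptor), held 10 of the 154 PU.1/ETS sites, and a peak of 539 bp in Rapgef6 held 16 of the 150 STAT sites. These 3 peaks were named after their values had been seen.

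In wide distal peaks with 2 summits, sequences were counted at each summit. The windows of 50 bp around both did not overlap in 275 of 280 such peaks. AP-1 was at the higher scored summit in 44 (16.0%, 12.1 to 20.8) and at the lower scored one in 27 (9.82%, 6.84 to 13.9), and at both in 4. PU.1/ETS was at the higher one in 19 and at the lower one in 16, and at both in 0. For C/EBP the counts were 19 and 21, for NF-kB 12 and 11, with 2 peaks each that had it at both. Within 50 bp of the best summit, AP-1 was in 15.4% of all wide and 14.6% of narrower peaks, and PU.1/ETS in 6.26% and 7.89%. The counts at both summits have no comparison.

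Most genes with a wide distal peak in reach had only 1. Within 50000 bp of the most upstream start or inside the gene, 1179 of 20807 autosomal protein-coding genes had at least 1, 1048 had exactly 1, 23 had 3 or more and 4 had 5. These genes are named by their number of wide peaks, so the counts describe and test nothing. Rsad2 and its neighbour Cmpk2, a nucleotide kinase gene also induced by interferon, shared the same 5 peaks, 4 of them lower scored. Beside the peak of 2080 bp these were 523, 607 and 575 bp long inside Rsad2, with scores of 242, 324 and 384, and 600 bp long on the far side, with 274. Rnf144a, a ubiquitin ligase gene next to them, had 4 of the 5 within its reach. Near Jdp2, a repressor of the AP-1 family, all 5 peaks were lower scored, with scores of 341, 274, 204, 367 and 226, widths of 538 to 1129 bp, and distances of 11240 to 46996 bp after the start. The 2 farthest were also 2 of the 3 peaks of Batf, and the third, inside Batf, scored 1825.

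Of the 23 genes with 3 or more, which share some of their peaks, 5 had only lower scored ones, 3 had only higher scored ones and 15 had both. Those named here are the 6 with 4 or 5 peaks and, of 17 with 3, the first 4 by alphabet. The 3 peaks in introns of Cd83 scored 219, 505 and 524 and followed each other between 9004 and 12034 bp after the start. The 3 peaks ascribed to Cbx7, a Polycomb subunit gene, scored 376, 358 and 147, and 1 of them was inside the neighbouring Pdgfb, a growth factor gene. All 3 were also in reach of Pdgfb, which had the nearest coding start of the peak scored 358, at 18608 bp. At Tnfrsf1b, which encodes the TNF receptor TNFR2, only 1 of 4 was lower scored: the best summits lay 36705 and 14717 bp before and 12715 and 30901 bp after the start, with scores of 1683, 1176, 1644 and 196. Ankrd11, a chromatin regulator gene, held 3 peaks, which also count among the 5 of Gm20388, a gene model that spans many other genes and 274 distal peaks.

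**Figure D5:**
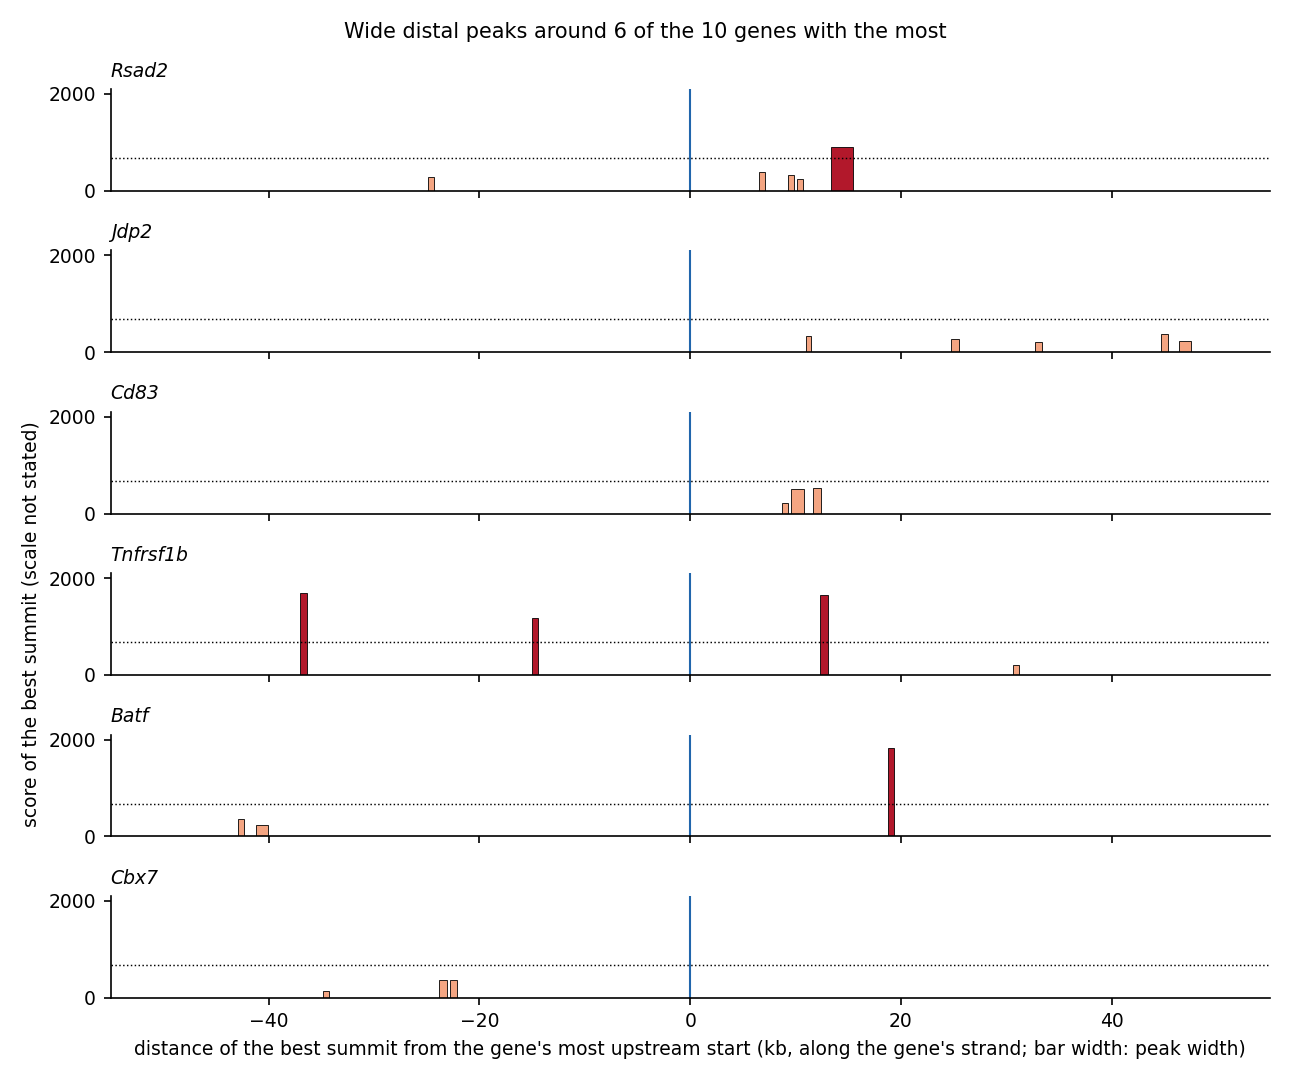
Wide distal peaks around 6 of the 10 genes with the most, ties at 3 taken by alphabet, by distance of the best summit from the most upstream start in kb (blue line) and best summit score; bar width is peak width, red bars are higher and orange bars lower scored peaks, and the dotted line is the median of all distal peaks, 675. At Jdp2, Cd83 and Cbx7 all peaks are below the line, at Rsad2 4 of 5, at Batf 2 of 3 and at Tnfrsf1b 1 of 4.

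Lists of genes of LPS response, immediate early and feedback genes, IL-4 response, macrophage genes, genes of all cells and genes of other tissues were then looked up, with the 5.21% of all coding genes as background. The lists were chosen with earlier results of these data known, so their shares are a description. A peak was counted for a gene by distance alone, and in 31 of the 46 pairs of listed gene and wide peak that gene had the nearest coding start. A wide distal peak lay within 50000 bp of the most upstream start of 15 of 30 LPS response genes (50.0%, 33.2 to 66.8) and 9 of 20 immediate early and feedback genes (45.0%, 25.8 to 65.8). Among the other 4 lists, the same held for 7 of 24 macrophage genes (29.2%, 14.9 to 49.2), 3 of 13 genes of all cells (23.1%, 8.18 to 50.3), 1 of 20 IL-4 response genes (5.00%, 0.888 to 23.6) and 1 of 25 genes of other tissues (4.00%, 0.710 to 19.5). Genes of most lists also had more distal peaks of any width around them, a mean of 11.7 for LPS response, 11.9 for immediate early, 8.65 for IL-4 response, 11.8 for macrophage, 6.54 for all cells and 3.80 for other tissues, against 3.86 over all coding genes. As a share of these distal peaks, wide ones made up 6.53%, 4.18%, 0.578%, 2.47%, 3.53% and 2.11%, in the same order, against 1.51% over all coding genes. Of 25 macrophage genes and 15 genes of all cells listed, those off the autosomes were not counted. The condition on dense regions left out 51 further pairs of LPS response genes and wide peaks, at 17 of the 30 genes. Without wide peaks within 1000 bp of a RefSeq start, the counts were 13 for LPS response and 6 for macrophage genes. Those of the other 4 lists did not change.

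Several cytokine genes were among the LPS response genes with wide distal peaks. The peak of Tnf lay 8350 bp before its start, nearer to that of Lta (lymphotoxin-α, 5006 bp), with a width of 678 bp and a score of 1708, and held an AP-1, an NF-kB and an IRF sequence. That of Il1a, which encodes interleukin-1α, lay 10185 bp before the start with a score of 1812 and 2 AP-1 sequences. The peak of Il12b, the gene of the p40 chain of interleukin-12, lay 9828 bp before the start with a score of 1594 and 1 NF-kB sequence. Il10, an anti-inflammatory cytokine gene, had 2 peaks 25785 and 26839 bp after its start with scores of 554 and 823. At Cxcl10, an interferon-induced chemokine gene, the peak was 762 bp wide, scored 467 and lay in an intron of Art3.

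Besides Rsad2, further LPS response genes had 1 or 2 of these peaks. Nfkbia, which encodes the NF-kB inhibitor IκBα, had peaks 22354 and 18631 bp after its start with scores of 242 and 1357, and the first of them held an NF-kB sequence. Socs3, an inhibitor of cytokine signalling, had 2 with scores of 934 and 1721, both with a PU.1/ETS sequence, and Traf1, an adaptor of TNF receptors, had 2 with scores of 439 and 1153. The peak of Ptgs2 scored only 242, although it was 928 bp wide and was 1 of only 2 distal peaks around that start. Single peaks lay near Acod1 (the itaconate enzyme, score 990), Tnfaip2 (1248) and Marcksl1 (1345).

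Of the 22 different wide peaks near LPS response genes, 9 were lower scored, against 131 of all 719, and their median score was 922. A lower scored peak lay near 6 of 30 LPS response genes (20.0%, 9.51 to 37.3), where the share over all coding genes was 0.755%, but Rsad2 alone accounted for 4 of the 9 peaks. NF-kB sequences were in 6 of the 22 (27.3%, 13.2 to 48.2) and AP-1 sequences in 5 (22.7%, 10.1 to 43.4), intervals that include the 16.4% and 36.7% of all wide distal peaks.

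Immediate early genes had mostly single peaks of high score on the upstream side. Best summits lay 18515 bp before the start of Fos (score 2206), 6537 bp before Fosb (1594), 7067 bp before Junb (1581) and 12712 bp before Atf3 (1812), all genes of AP-1 and ATF factors. The Junb peak, 866 bp wide, held 3 AP-1 and 2 SP/KLF sequences, and the Fos peak 3 SP/KLF and no AP-1 sequences. The peak of Maff, a small MAF factor gene, was lower scored at 613. Peaks lay before the starts of Ier3 (1236), of Dusp2 (a MAP kinase phosphatase, 1129) and of Zfp36, which encodes the mRNA decay factor tristetraprolin (1864). At Btg2, an antiproliferative gene, 2 peaks lay after the start with scores of 1942 and 266. In all, AP-1 sequences were in 5 of these 10 peaks (50.0%, 23.7 to 76.3), an interval that includes the 36.7% of all wide distal peaks.

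The other lists gave few peaks. The only IL-4 response gene at this width was Socs1, an inhibitor of JAK kinases, with a peak of 534 bp, score 2061 and 3 AP-1 sequences 30822 bp after its start. With peaks of 400 bp or more, 7 of 20 IL-4 response genes had one (35.0%, 18.1 to 56.7), where the share of all coding genes was 12.9%, and within 20000 bp of the start 0 had a wide peak. Macrophage genes with a peak were Cebpb and Fli1 (transcription factors, scores 1406 and 1468), Lyz2 (727), Cd14 (1644), Trem2 (a lipid receptor, 1760), Mpeg1 (a pore-forming protein, 1568) and Msr1 (a scavenger receptor, 411). NF-kB sequences were in 0 of these 7 peaks (0 to 35.4%) and AP-1 in 4 (25 to 84.2%), intervals that include the 16.4% and 36.7% of all wide distal peaks. Of genes of all cells, Actb had a peak with a score of 2179 at 14168 bp before its start, and Tubb5 shared that of Ier3. Of genes of other tissues, Vil1, an actin-binding protein of the gut, had 2 with scores of 1708 and 2034, 22292 and 11901 bp before its start. The first was nearer to Slc11a1 (3484 bp), a metal transporter of macrophages, and the second to Ctdsp1 (5313 bp).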

How the data were processed

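ATAC-seq libraries of 18 BMDM samples were sequenced by the authors as single-end reads of 76 bases. Per the study's methods, reads were cleaned with BBDuk and Trimmomatic (0.39), mapped to mm10 with ShortStack, filtered with SAMtools (1.9) and used for peak calling with MACS2 (2.2.6), with fixed extension, no local background and duplicates kept, and reference peaks had to pass a strict q-value and overlap between replicates (versions from the submitters' processing notes). No shift to the Tn5 cut site is named, so summits may lie beside the insertion sites, and extension and joining of peaks can affect width. The deposited lists give positions, and the deposited summit list a score of unstated scale, pooled over all libraries, so that no replicate, depth or precision per library was available. The planned comparison of stimuli could therefore not be made. Of columns of other samples there were 0.

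Starts, exons and genes were taken from GENCODE M21, and sequence and repeat masking from GRCm38.p6. Peaks, gene lists, sequences and rules were chosen with earlier results of these data known. Shares have 95% Wilson intervals and ratios of shares log (Katz) intervals (Python 3.11.15, statsmodels 0.14.6), and the search was tested on simulated data. No p-value was computed. Of 17 consensus sequences searched, of the best scored peaks and of the listed genes, 1 each is not reported here. Flanks were windows 1000 bp from the summit that overlapped no reference peak. The text names the 5 widest, 5 best scored and 5 peaks with most summits, the 10 genes with most wide distal peaks (ties by symbol), listed genes with at least 1, and for 7 factors the widest peak with the sequence. Alternatives changed widths, windows, anchors, flanks and the peaks compared. Coordinates count from 1.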

Additional observations from a re-analysis of the deposited data

How the results depend on the processing

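No paired analysis was possible because the lists hold no value per library, and for the same reason no replicate could be left out. Of 157 values under an alternative, 126 stayed within the interval of the reported value or within 1.5 times its count. The number of wide distal peaks was 2243, 285 and 69 with thresholds of 400, 600 and 750 bp. From 750 bp, where 69 peaks remained, the NF-kB ratio turned to 0.761, PU.1/ETS moved to 0.397, CTCF to 0.782 (0.199 to 3.07), and EGR fell to 0. At the peak centre in place of the summit, PU.1/ETS was at 0.608 (0.461 to 0.803) and AP-1 at 0.853, and within 200 bp AP-1 was at 1.34 (1.20 to 1.5). The choice by width enters these values. From 400 bp SP/KLF was at 2.29. In comparisons added after the data were seen, peaks below the median score gave 0.718 for PU.1/ETS, 0.729 for AP-1, 1.85 (0.843 to 4.05) for SP/KLF and 0 for EGR, and leaving out CpG-rich peaks gave 2.12 for SP/KLF and 1.02 for EGR. Values of SP/KLF were above 1 and of CTCF below 1 in all 15 alternatives, though not every interval excluded 1. The GC difference was 2.18 points within 50 bp and 3.67 within 200 bp. From 400 bp, gene counts were 14 for immediate early, 7 for IL-4 response, 14 for macrophage and 3 for other tissues, where 12.9% of all coding genes had such a peak. From 600 bp they were 5, 0 and 4 for the first 3, and 1 for all cells, where the share of all coding genes was 2.28%. Within 20000 bp, IL-4 response had 0 and macrophage 3, and within 100000 bp IL-4 response and other tissues had 2 each. The causes were not tested.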
